A study of Mus musculus with 10 samples.

Results

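The late cornified envelope (LCE) and small proline-rich (SPRR) genes encode the small cross-linked proteins that harden the outer shell of epidermal cells. They were compared here, with their neighbours Lor, Ivl, Kprp and Lelp1, in epidermis with and without integrin-linked kinase (ILK). Members were the genes whose symbol in the array annotation begins with Lce or Sprr and a digit, together with those 4 genes, each through the probe set of that single symbol with the highest mean over all arrays. This gave 36 genes, with 1 probe set each, of 35556 probe sets (called transcript clusters on this array) in the table. The 5 ILK-deficient mice were K14Cre; Ilk f/f, and the 5 ILK-expressing mice were K14Cre; Ilk f/+. Both genotypes were thus hemizygous for a Cre transgene under the keratin 14 promoter and carried at least 1 floxed Ilk allele. All mice were 3 days old, and RNA came from epidermis lifted off the dermis with dispase and hybridised to GeneChip Mouse Gene 1.0 ST Arrays, 1 array per mouse. The keratin 14 promoter drives Cre in basal keratinocytes and their descendants, hair follicles and sebaceous glands included, but not in the melanocytes, Langerhans cells or T cells of the same tissue.

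The cornified envelope replaces the plasma membrane of keratinocytes as they die and turn into the scales of the stratum corneum. Transglutaminases join involucrin first, then loricrin, which makes up most of the shell, with SPRR proteins as bridges between them, and LCE proteins are added late. The genes lie side by side in the epidermal differentiation complex on mouse chromosome 3 and are switched on in the upper spinous and granular layers. In mice, some Sprr2 genes are known to be induced when the barrier is damaged or loricrin is missing, and in humans LCE3 genes are known to be induced in injured skin. Repeated duplication has left the Lce1 and Sprr2 genes so alike that a probe may bind the transcript of a sister gene, and a value of 1 of these genes is uncertain to that extent.

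Sequence before the transcription start is shown for 9 members as a description. Whether its letters bear on the values of the arrays was not tested. The sequences are from RefSeq, build GRCm38.p6, and end 1 base before the annotated start. In the 5 below, from Lor (chr3:92083143-92083342, minus strand), Ivl (chr3:92573736-92573935, minus strand), Sprr1a (chr3:92485882-92486081, minus strand), Sprr2b (chr3:92316505-92316704, plus strand) and Sprr2d (chr3:92338940-92339139, plus strand), capitals mark TGANTCA, the letters read by AP-1 factors, ATGCAAAT, the octamer read by POU factors (ATTTGCAT on the other strand), and the TATA box TATAAA.
Lor: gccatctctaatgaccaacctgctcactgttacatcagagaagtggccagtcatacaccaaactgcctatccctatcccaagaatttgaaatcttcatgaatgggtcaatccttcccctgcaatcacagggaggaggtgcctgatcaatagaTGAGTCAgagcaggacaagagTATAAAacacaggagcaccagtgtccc
Ivl: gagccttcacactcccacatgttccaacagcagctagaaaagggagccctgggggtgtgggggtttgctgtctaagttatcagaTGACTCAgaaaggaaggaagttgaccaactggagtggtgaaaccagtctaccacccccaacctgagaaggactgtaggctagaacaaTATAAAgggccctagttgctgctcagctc
Sprr1a: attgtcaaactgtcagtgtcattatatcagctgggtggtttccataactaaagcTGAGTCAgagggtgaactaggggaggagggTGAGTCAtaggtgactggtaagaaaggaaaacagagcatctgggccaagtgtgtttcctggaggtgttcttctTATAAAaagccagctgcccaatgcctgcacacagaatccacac
Sprr2b: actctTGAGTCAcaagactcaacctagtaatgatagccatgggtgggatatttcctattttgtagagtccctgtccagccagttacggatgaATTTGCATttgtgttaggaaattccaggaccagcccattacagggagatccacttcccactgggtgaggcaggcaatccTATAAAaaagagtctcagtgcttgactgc
Sprr2d: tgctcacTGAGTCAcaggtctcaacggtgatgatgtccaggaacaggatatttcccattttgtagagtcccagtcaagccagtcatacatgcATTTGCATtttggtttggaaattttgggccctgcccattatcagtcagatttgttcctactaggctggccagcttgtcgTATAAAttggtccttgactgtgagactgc
Of 36 members, 32 had such a sequence, and Sprr2g, Sprr2j-ps, Lce1f and Kprp had none. Each motif was searched on both strands in the 250 bases before the start. TGANTCA was found in 11 of 32, which were all 7 Sprr2 genes with a sequence, both Sprr1 genes, Lor and Ivl, against 6.75% of all 32851 promoters of the same length. The octamer was found in 7 of 32, all Sprr2, against 1.6% of all promoters, and its first base lay at positions -112 to -108, counted from the start. TATAAA was found in 15 of 32, against 12.4%.

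In the Lce1 promoters below, capitals mark ATAAAAG, which overlaps TATAAA where a T precedes it, and ACTGTCTCAC, the 10 letters shared by most Lce1 promoters. They are those of Lce1a1 (chr3:92648308-92648507), Lce1e (chr3:92709075-92709274), Lce1i (chr3:92778900-92779099) and Lce1l (chr3:92851287-92851486), all on the minus strand.
Lce1a1: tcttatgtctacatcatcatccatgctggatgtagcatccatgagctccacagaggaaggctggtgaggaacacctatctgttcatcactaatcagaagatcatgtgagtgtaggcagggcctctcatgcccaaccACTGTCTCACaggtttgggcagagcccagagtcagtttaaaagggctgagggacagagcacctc
Lce1e: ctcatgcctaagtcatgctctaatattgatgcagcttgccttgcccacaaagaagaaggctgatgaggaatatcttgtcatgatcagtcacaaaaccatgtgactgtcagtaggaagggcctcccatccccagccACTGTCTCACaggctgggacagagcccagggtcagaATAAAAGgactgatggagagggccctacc
Lce1i: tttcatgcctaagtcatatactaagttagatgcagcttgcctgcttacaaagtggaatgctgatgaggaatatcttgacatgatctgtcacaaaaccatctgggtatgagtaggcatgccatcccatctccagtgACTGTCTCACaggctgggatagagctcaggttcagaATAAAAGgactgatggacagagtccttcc
Lce1l: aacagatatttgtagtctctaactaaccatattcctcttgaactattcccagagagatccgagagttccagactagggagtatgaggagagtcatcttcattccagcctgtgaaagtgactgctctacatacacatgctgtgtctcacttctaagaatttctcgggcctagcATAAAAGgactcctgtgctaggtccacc
ATAAAAG was found in 9 of 12 Lce1 promoters and in 4 of 5 Lce3 promoters, against 4.83% of all promoters. ACTGTCTCAC was picked from these same sequences as the 10 letters found in the most Lce1 promoters, so its high share there follows from the choice. It was found in 9 of 12 Lce1 promoters, in no other member and in 0.131% of all promoters, which holds these 9. TGANTCA and the octamer were found in none of the 12. Of the other motifs, TGACNNNGC, the core of the antioxidant response element, which can overlap TGANTCA, was found in 6 of 32 members against 10.2% of all promoters, and AACCNGTT, read by grainyhead-like factors, in 0 of 32 against 1.79%. The ETS letters GGAAGT were found in 9 of 32 against 19.7%, and CCAAT in 8 of 32 against 33.8%. These matches describe letters only.

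Values are log2 of the summarised probe intensity as deposited. The arrays had medians between 7.07 and 7.17, and only probe sets that reached 50 on the linear scale on at least 5 arrays entered the test. The Ilk probe set, which pools probes along the whole transcript, was at 8.75, 8.99, 9.07, 8.97 and 8.92 in ILK-deficient and at 9.02, 9.01, 9.35, 9.08 and 9.38 in ILK-expressing epidermis (log2 fold change -0.23, limma adjusted p = 0.253), so it gives little check of the labels. Keratinocyte markers were present on all arrays, with the summed level of 6 basal markers between 15.15 and 15.25 in ILK-deficient and between 15.24 and 15.46 in ILK-expressing epidermis. For 12 hair shaft and inner root sheath markers, the summed level was 10.54 to 12.02 in ILK-deficient and 13.95 to 16.13 in ILK-expressing epidermis. At a limma adjusted p under 0.05, 11 of the 12 were lower, and at an unadjusted p under 0.05 all 12. For 6 melanocyte markers, the summed level was 12.58 to 13.56 in ILK-deficient and 10.50 to 11.98 in ILK-expressing epidermis. Here 4 of the 6 were higher at an adjusted p under 0.05, and all 6 at an unadjusted p under 0.05. Of all probe sets tested, 3.78% passed the adjusted threshold in either direction and 15.9% the unadjusted one. ILK-expressing replicate 5 stood apart in the genes described here. It had the highest of the 5 ILK-expressing values for 26 of 32 tested members (81.2%), against 25.6% of all tested probe sets, so the log2 fold changes of the members described below are also given without it. In RNA of whole epidermis, fewer cells of a type and less RNA per cell cannot be told apart.

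None of the tested members passed the test between genotypes. Of 36 members, 32 were tested, and Sprr2k, Lce3b, Lce3e and Lelp1 stayed under the filter, with no value above 6.18 on any array. By limma with Benjamini-Hochberg adjustment, 0 of 32 were called, while 3.78% of the 32046 probe sets tested were called. By unadjusted p under 0.05 it was 1 of 32, Sprr1a (3.12%), against 15.9% of all probe sets tested, and by the analysis of variance that the methods name 2 of 32, with 0 after adjustment. The genotypes overlapped in all 32, while they did not overlap in 6.33% of all probe sets. Adjusted p values ran between 0.202 and 0.999. The median log2 fold change of the 32 was -0.11, with 23 below 0 and 9 above 0, and that of all probe sets tested was 0.00, with 49.0% below 0. Without ILK-expressing replicate 5 the median was 0.07, with 11 below 0 and 21 above 0, and 0 of 32 were called. The median of all probe sets was then -8e-04, with 50.2% below 0. Of the 21 members above 0, 11 were Lce1 genes, which varied together and are not independent.

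The 95% intervals of limma give the size of change that 5 arrays against 5 can resolve. The interval lay within 2-fold in either direction for 25 of 32 members, and within 1.5-fold for 15. Those whose interval reached 2-fold were Sprr2d (-0.22 to 1.23), Sprr3 (-0.83 to 1.60), Sprr4 (-1.12 to 0.30), Lce1f (-1.03 to 0.55), Lce1i (-1.01 to 0.69), Lce1l (-1.09 to 0.47) and Lce3c (-1.03 to 0.29). These 7 are the members for which a change of 2-fold remains within the error of 5 arrays against 5. Of the 15 within 1.5-fold, Sprr2e, Sprr2f, Sprr2g, Sprr2i, Sprr2j-ps and Lce3f had genotype means between 5.77 and 6.64. These means lie below the array medians of 7.07 to 7.17, near the floor, where a narrow interval says little about a change. The others of the 15 had genotype means between 11.94 (Sprr1b) and 14.05 (Lce1a1), high on the scale. Whether the array's response flattens there, so that a change would look smaller, was not tested.

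**Figure D1:**
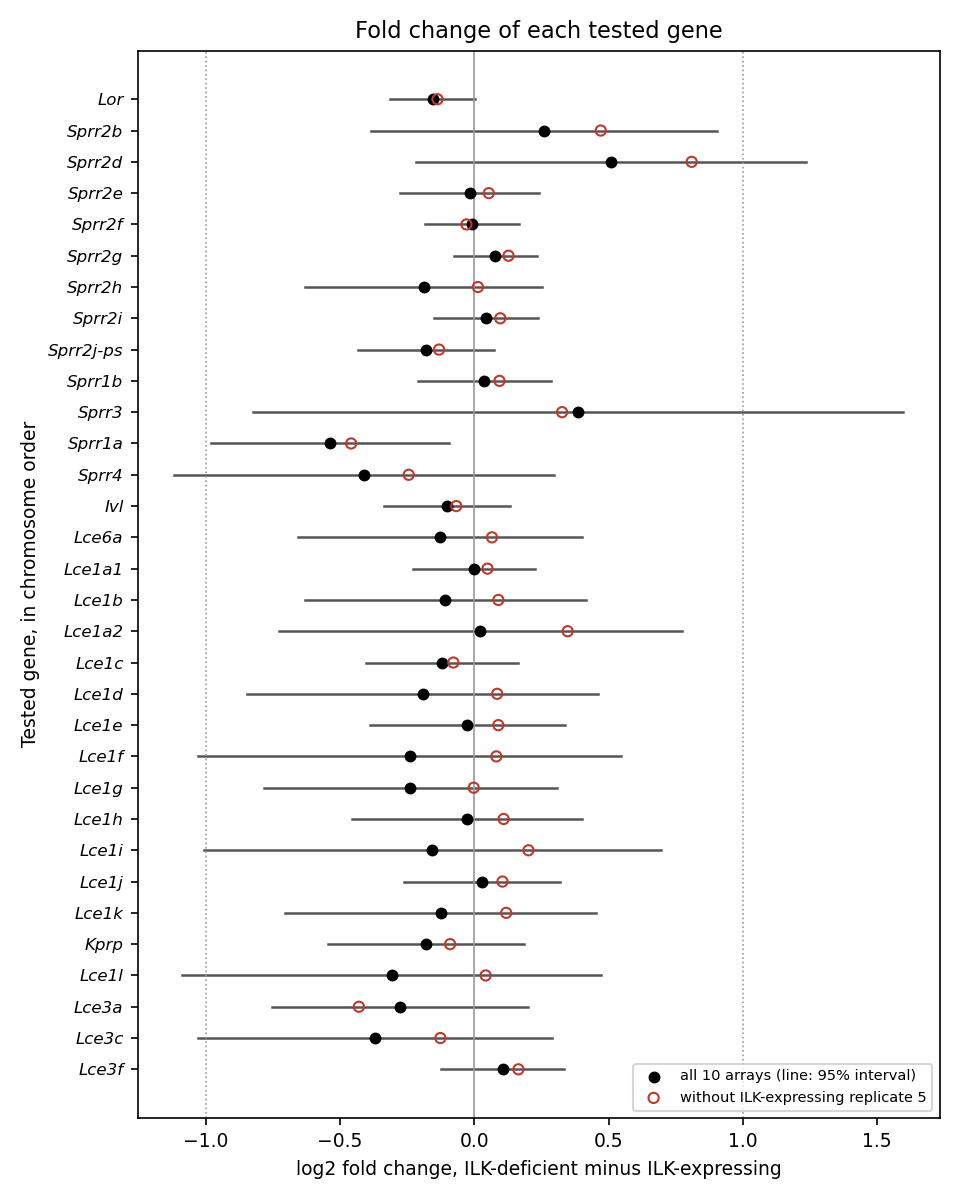
The log2 fold change of each of the 32 tested genes, ILK-deficient minus ILK-expressing, runs along the horizontal axis, with genes down the page in chromosome order, black dots and 95% intervals from all 10 arrays and open red circles without ILK-expressing replicate 5. Every interval except that of Sprr1a (-0.98 to -0.09) includes 0, and the red circles of 11 of 13 Lce1 genes lie above 0.

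Lor (probe set 10499870) encodes loricrin, the main protein of the envelope. It was at 13.47, 13.55, 13.30, 13.49 and 13.64 in ILK-deficient epidermis, against 13.71, 13.62, 13.55, 13.63 and 13.72 in ILK-expressing epidermis. Only ILK-deficient replicates 2 and 5 exceeded any ILK-expressing array, and the genotypes overlapped. The means were 13.49 ± 0.126 in ILK-deficient and 13.64 ± 0.0701 in ILK-expressing epidermis (SD, n = 5 each), a log2 fold change of -0.15 with a 95% interval of -0.31 to 0.00. The adjusted p was 0.328 by limma and the exact permutation p, two-sided, 0.0556. Without ILK-expressing replicate 5 the log2 fold change was -0.14, and this array was 0.09 above the mean of the other 4.

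Ivl encodes involucrin, the scaffold laid down first. It was at 12.87, 12.58, 13.09, 12.60 and 12.59 in ILK-deficient epidermis, against 12.90, 12.76, 12.80, 12.80 and 12.98 in ILK-expressing epidermis. The highest value and the 3 lowest were all from ILK-deficient mice. The log2 fold change was -0.10 (95% interval -0.33 to 0.13, limma adjusted p = 0.774), and -0.07 without ILK-expressing replicate 5.

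Kprp encodes keratinocyte proline-rich protein, another protein of the upper epidermis. It was at 13.33, 13.26, 12.90, 12.70 and 13.20 in ILK-deficient epidermis, against 13.27, 13.14, 12.81, 13.44 and 13.62 in ILK-expressing epidermis. ILK-expressing replicates 4 and 5 were the only arrays above 13.4, and the log2 fold change was -0.18 (95% interval -0.55 to 0.18, limma adjusted p = 0.725), and -0.09 without replicate 5. Lelp1, a proline-rich relative of the late envelope genes, was at 5.67, 5.38, 5.47, 5.59 and 5.32 in ILK-deficient epidermis, against 5.53, 5.69, 5.49, 5.59 and 5.45 in ILK-expressing epidermis, and was not tested.

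**Figure D2:**
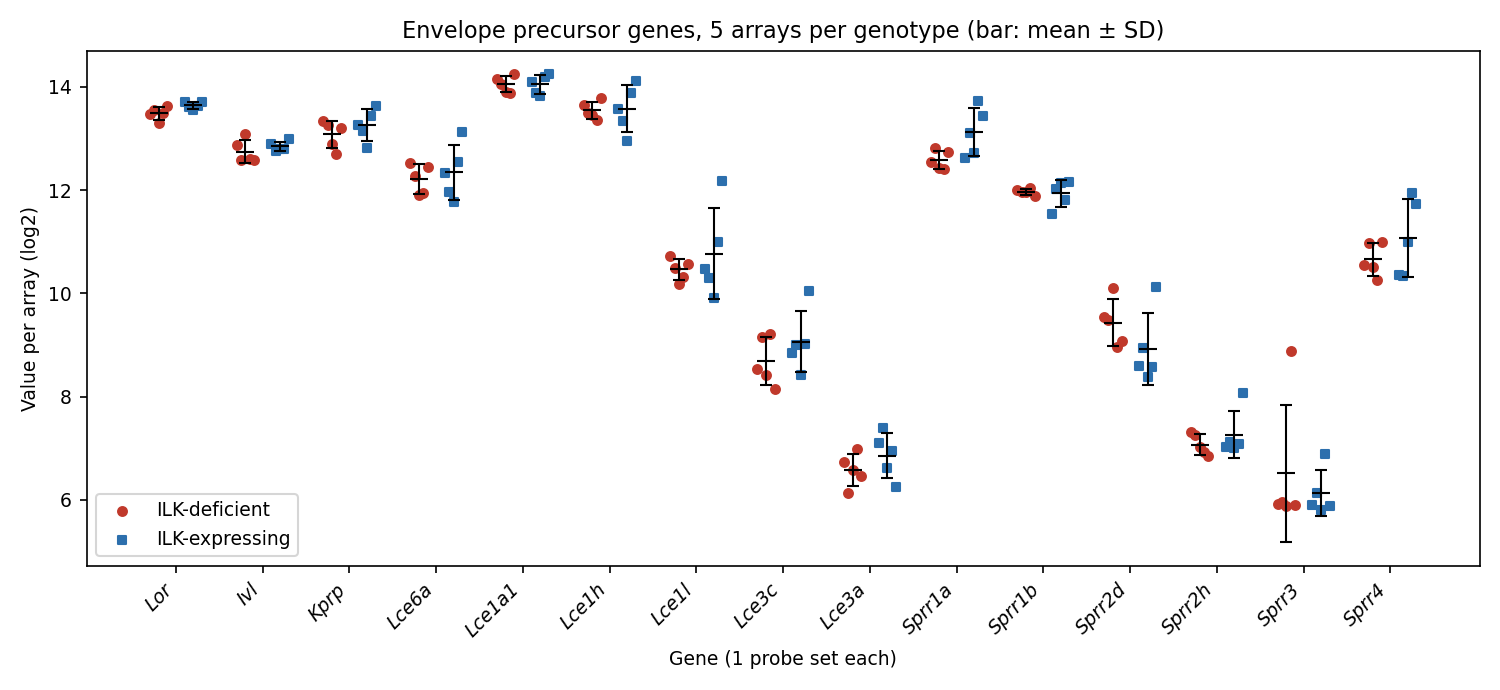
The log2 value of each array is shown for 15 genes, with ILK-deficient arrays as red circles left of ILK-expressing arrays as blue squares and black bars for the mean ± SD of 5 arrays. The genotypes overlap for each gene, Lor is the tightest of these in ILK-expressing epidermis (SD 0.0701), and Sprr3 has 1 ILK-deficient array at 8.89.

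The 13 Lce1 genes, the largest LCE subfamily in the mouse, had log2 fold changes between -0.31 (Lce1l) and 0.03 (Lce1j), with a median of -0.12, 11 of them below 0. None was called, and their adjusted p values lay between 0.771 and 0.999. Lce1a1 was at 14.15, 14.06, 13.90, 13.89 and 14.24 in ILK-deficient epidermis, against 14.10, 13.88, 13.83, 14.18 and 14.25 in ILK-expressing epidermis. The genotype means coincided at 14.05 in each, and the 95% interval of the difference was -0.23 to 0.23. Without ILK-expressing replicate 5 the log2 fold change was 0.05. The highest value of any probe set on an array was between 14.7 and 16.7.

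Lce1h was at 13.64, 13.50, 13.45, 13.36 and 13.79 in ILK-deficient epidermis, against 13.57, 13.34, 12.95, 13.88 and 14.12 in ILK-expressing epidermis. The ILK-expressing arrays held both its lowest and its highest value, and the log2 fold change of -0.03 (95% interval -0.46 to 0.40) was 0.11 without ILK-expressing replicate 5. Lce1l, with the lowest log2 fold change of the subfamily, was at 10.73, 10.50, 10.19, 10.33 and 10.57 in ILK-deficient epidermis, against 10.48, 10.30, 9.91, 10.995 and 12.17 in ILK-expressing epidermis. A single ILK-expressing array, replicate 5, set its mean: the log2 fold change was -0.31 with it (adjusted p = 0.807, limma) and 0.04 without it (adjusted p = 0.946).

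Mice of 1 genotype differed among themselves in the Lce1 genes, and more so in ILK-expressing epidermis. The median SD of the 13 genes was 0.21 in ILK-deficient and 0.606 in ILK-expressing epidermis, and it was larger in ILK-expressing epidermis for 12 of 13. Without ILK-expressing replicate 5 the median SD in ILK-expressing epidermis was 0.344, and it was larger there than in ILK-deficient epidermis for 11 of 13. Over all tested probe sets the SD was larger in ILK-expressing epidermis for 62.5%. The median deviation of the 13 genes from their means over 10 arrays was 0.11, -0.02, -0.29, -0.20 and 0.10 in ILK-deficient replicates 1 to 5, against -0.07, -0.20, -0.59, 0.26 and 1.04 in ILK-expressing replicates 1 to 5. ILK-expressing replicate 3 was the lowest array and replicate 5 the highest. Replicate 5 had the highest ILK-expressing value for 13 of 13 Lce1 genes and the highest of all 10 arrays for 12 of 13. Within genotypes, the deviations of 2 Lce1 genes correlated with a median r of 0.91 over 78 pairs (0.621 to 0.991, 10 arrays), and with a median of 0.868 without ILK-expressing replicate 5. Cross-hybridisation between these genes would raise such correlations, and its part was not tested.

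**Figure D3:**
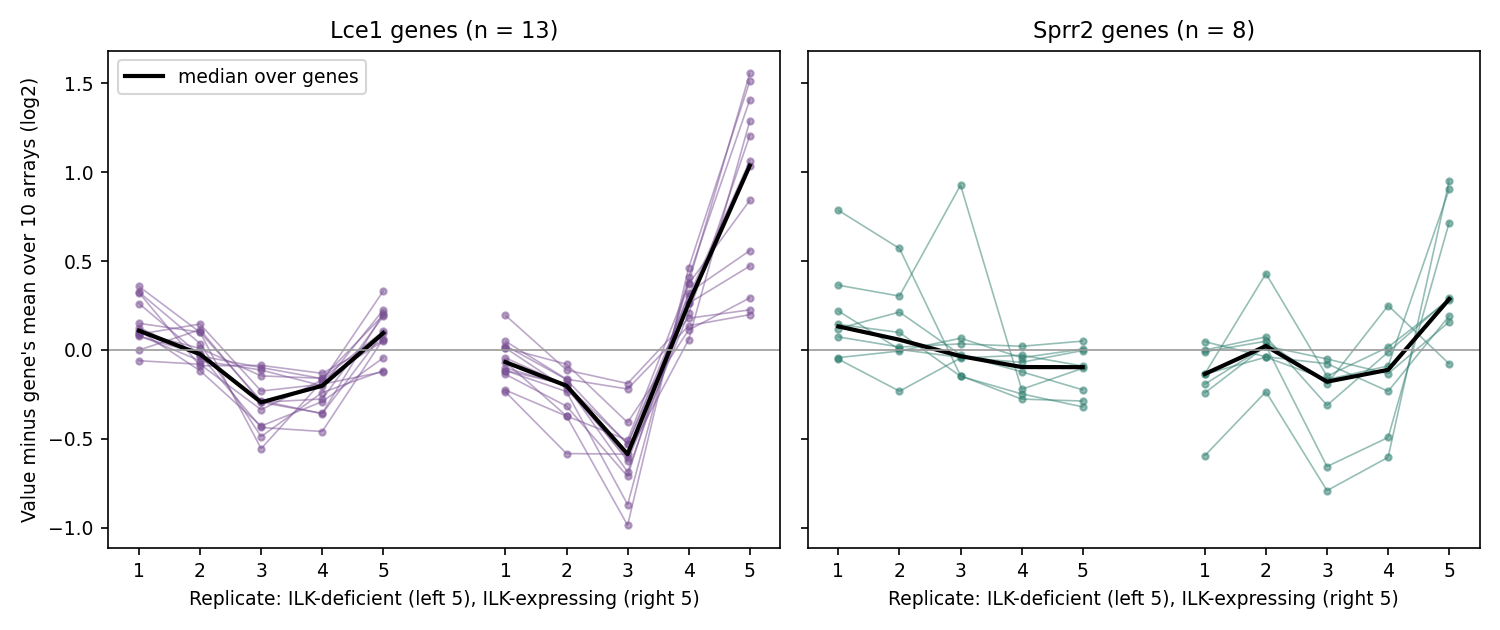
Each thin line is 1 gene, drawn as its log2 value minus its own mean over 10 arrays, for the 13 Lce1 genes (left panel) and the 8 tested Sprr2 genes (right panel), with ILK-deficient replicates 1 to 5 left of ILK-expressing replicates 1 to 5 and the median over genes in black. Lines join the values of a gene, and replicate numbers have no order. The Lce1 lines run close together and end at a median of 1.04 in ILK-expressing replicate 5, while the Sprr2 median there is 0.29.

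Not all Lce1 genes differed equally in ILK-expressing replicate 5. Its difference from the mean of the other 4 ILK-expressing arrays was 1.79 for Lce1i, 1.75 for Lce1l, 1.62 for Lce1a2 and 1.61 for Lce1f, but 0.25 for Lce1a1 and 0.21 for Lce1c. Genes with a higher mean value on the array differed less (r = -0.82 across the 13 genes, which share arrays and are not replicates). Whether the array's response flattens near the top of its scale was not tested. Hair and sebaceous markers moved with this array and with ILK-expressing replicate 4. The summed level of the 12 hair markers was 16.13 and 15.49 in ILK-expressing replicates 4 and 5 and at most 14.77 on every other array, and that of 6 sebaceous markers was 13.13 and 13.27, against at most 12.17 on every other array. The part of these cells in the Lce1 values was not tested. In Lce1i, named after its values were seen, ILK-expressing replicate 5 reached 12.87, with the other ILK-expressing arrays between 10.37 and 11.82 and the ILK-deficient arrays between 11.002 and 11.56.

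**Figure D4:**
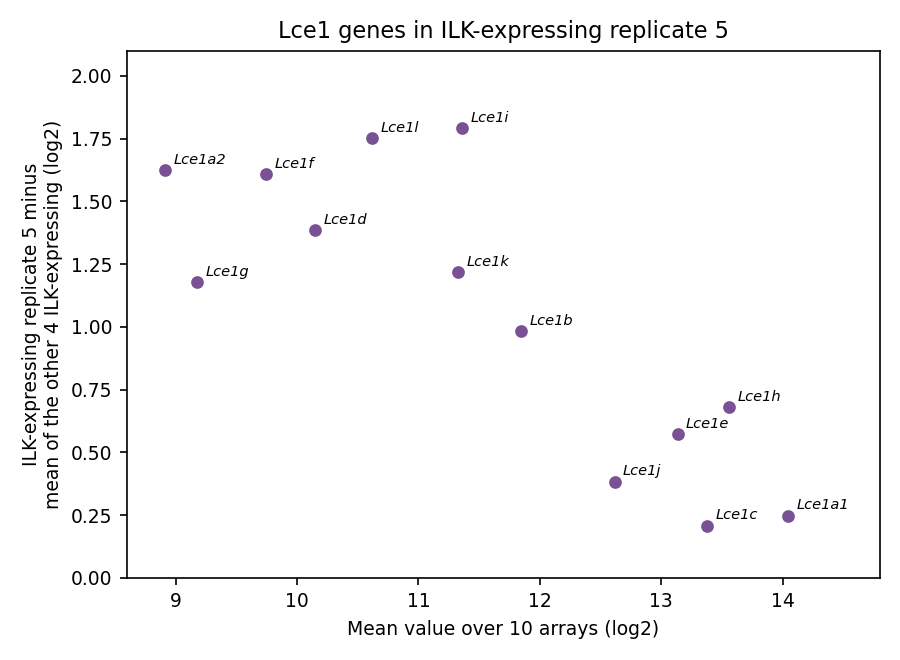
For each of the 13 Lce1 genes, the horizontal axis gives the mean log2 value over 10 arrays and the vertical axis the log2 difference of ILK-expressing replicate 5 from the mean of the other 4 ILK-expressing arrays. All 13 points lie above 0, between 0.21 for Lce1c and 1.79 for Lce1i.

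Lce6a and Kprp followed the Lce1 genes. Lce6a, the single member of its subfamily, was at 12.52, 12.28, 11.91, 11.94 and 12.45 in ILK-deficient epidermis, against 12.34, 11.96, 11.77, 12.55 and 13.13 in ILK-expressing epidermis. ILK-expressing replicate 5 was again the highest and replicate 3 the lowest, and the log2 fold change of -0.13 (95% interval -0.66 to 0.40, limma adjusted p = 0.904) was 0.07 without replicate 5 (adjusted p = 0.907). Its deviations correlated with those of the Lce1 genes at a median r of 0.941, and those of Kprp at 0.864, against 0.492 for Lor and 0.183 for Ivl (10 arrays each). As all genes were read from the same arrays, these values are descriptions.

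The Lce3 genes are those whose human counterparts respond to skin injury. Lce3c was at 8.54, 9.16, 8.42, 9.21 and 8.15 in ILK-deficient epidermis, against 8.85, 9.00, 8.43, 9.01 and 10.04 in ILK-expressing epidermis. Apart from ILK-expressing replicate 5 the genotypes covered much the same range, and the log2 fold change of -0.37 (limma adjusted p = 0.671) was -0.13 without that array. Lce3a was at 6.73, 6.14, 6.59, 6.98 and 6.47 in ILK-deficient epidermis, against 7.099, 7.40, 6.61, 6.94 and 6.25 in ILK-expressing epidermis. It was the one LCE gene that was lowest in ILK-expressing replicate 5 among ILK-expressing arrays, and without that array its log2 fold change of -0.28 (adjusted p = 0.656) became -0.43 (adjusted p = 0.272, limma). Lce3f had a log2 fold change of 0.11 (adjusted p = 0.750), and 0.16 without that array, and Lce3b and Lce3e, between 5.31 and 6.18 on all arrays, were not tested.

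The Sprr1 genes encode bridging proteins of the envelope. Sprr1a was the only member with an unadjusted p under 0.05. It was at 12.54, 12.81, 12.43, 12.42 and 12.74 in ILK-deficient epidermis, against 12.62, 13.10, 12.72, 13.73 and 13.43 in ILK-expressing epidermis. ILK-expressing replicates 2, 4 and 5 were above every ILK-deficient array, and replicates 1 and 3 lay among them. The means were 12.59 ± 0.178 in ILK-deficient and 13.12 ± 0.470 in ILK-expressing epidermis (SD, n = 5 each), a log2 fold change of -0.54 with a standard error of 0.200. The unadjusted p was 0.0223 and the adjusted p 0.202 by limma, and the exact permutation p, two-sided, was 0.0556. Without ILK-expressing replicate 5 the log2 fold change was -0.46 (unadjusted p = 0.053, adjusted p = 0.294, limma). The descriptions of the samples carry a letter in front of the sample number, with no word on its meaning. It was D on 7 arrays, D' on ILK-deficient replicate 5 and ILK-expressing replicate 4, and C' on ILK-expressing replicate 5 alone. Among the 4 ILK-deficient and 3 ILK-expressing arrays with the letter D, the log2 fold change of Sprr1a was -0.27 (adjusted p = 0.570). Over the alternatives run, its adjusted p lay between 0.106 and 0.570.

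Sprr1b, its closest relative, was at 12.01, 11.97, 11.96, 12.04 and 11.88 in ILK-deficient epidermis, against 11.54, 12.02, 12.14, 11.82 and 12.16 in ILK-expressing epidermis. The ILK-deficient arrays lay within the span of the ILK-expressing arrays, with an SD of 0.0574 against 0.259, and the log2 fold change was 0.04 (95% interval -0.21 to 0.29, limma adjusted p = 0.945), and 0.09 without ILK-expressing replicate 5. The difference between both Sprr1 genes was not tested.

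The Sprr2 genes are the envelope genes best known for induction in stressed mouse skin. Of 9 members, 8 were tested, 4 above 0 and 4 below 0, with a median log2 fold change of 0.02. Much of this median comes from Sprr2e, Sprr2f, Sprr2g, Sprr2i and Sprr2j-ps, near the floor with genotype means between 5.77 and 6.61. Probe sets shared by several Sprr2a genes had far higher values but are no members, and are described below. Their log2 fold changes were 0.59 (limma adjusted p = 0.0763) and 0.83 (adjusted p = 0.121). Sprr2d had the largest positive log2 fold change of all members. It was at 9.54, 9.48, 10.11, 8.96 and 9.08 in ILK-deficient epidermis, against 8.59, 8.94, 8.39, 8.58 and 10.13 in ILK-expressing epidermis. All 5 ILK-deficient arrays were above ILK-expressing replicates 1 to 4, and ILK-expressing replicate 5 was above them all. With that array, the ILK-deficient mean was higher by 0.51 on the log2 scale with a standard error of 0.328 (adjusted p = 0.552, limma), and without it by 0.81 with a standard error of 0.218 (adjusted p = 0.0842).

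Sprr2h was at 7.31, 7.27, 7.02, 6.92 and 6.85 in ILK-deficient epidermis, against 7.03, 7.13, 7.00, 7.08 and 8.07 in ILK-expressing epidermis. ILK-expressing replicate 5 was the highest array, with every other at 7.31 or less, and the log2 fold change of -0.19 (limma adjusted p = 0.779) was 0.01 without it. The other tested Sprr2 genes had log2 fold changes between -0.18 (Sprr2j-ps) and 0.26 (Sprr2b). Sprr2g and Sprr2j-ps are listed as transcribed pseudogenes in RefSeq. As a group the Sprr2 genes varied less in step than the Lce1 genes, with a median r between 2 of them of 0.553 over 28 pairs, and 0.272 without ILK-expressing replicate 5, against 0.91 and 0.868 for Lce1.

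Sprr3 is a protein of oral and oesophageal epithelium, little found in normal epidermis. It was at 5.92, 5.96, 5.89, 8.89 and 5.91 in ILK-deficient epidermis, against 5.90, 6.14, 5.81, 6.89 and 5.89 in ILK-expressing epidermis. A single array of each genotype, replicate 4 in both, was high, and all others were at 6.14 or less. The log2 fold change was 0.39 (adjusted p = 0.858, limma) with all arrays, 0.33 without ILK-expressing replicate 5 and -0.21 (adjusted p = 0.739) without ILK-deficient replicate 4. The same arrays had the highest values of Krt4, at 6.90 in ILK-deficient and 6.89 in ILK-expressing epidermis, and of Krt13, at 7.95 in ILK-deficient and 7.45 in ILK-expressing epidermis. Both are keratins of the same oral type of epithelium. The other 2 of the 4 oral markers did not have this pattern. Krt24 was at 7.71 in ILK-deficient replicate 4, the lowest ILK-deficient value, and at 7.06 in ILK-expressing replicate 4, and Krt76 was at 5.83 in ILK-deficient replicate 4 and at 5.85 in ILK-expressing replicate 4, below the 6.04 of ILK-expressing replicate 5. Their part in the Sprr3 values was not tested.

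Sprr4, an SPRR protein known for its response to ultraviolet light, was at 10.56, 10.97, 10.52, 10.27 and 11.001 in ILK-deficient epidermis, against 10.35, 10.34, 11.001, 11.94 and 11.73 in ILK-expressing epidermis. As in Sprr1a, ILK-expressing replicates 4 and 5 were the highest arrays. The log2 fold change was -0.41 (95% interval -1.12 to 0.30, limma adjusted p = 0.657). It was -0.24 without ILK-expressing replicate 5 (adjusted p = 0.771), and among the arrays with the letter D it was 0.02 (adjusted p = 0.994).

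One neighbour on the chromosome passed the test. Between the outermost members, Lor and Lce3f, the annotation named 2 other genes with a probe set of their own. Prr9, a proline-rich protein gene next to Lor, was at 6.70, 7.84, 7.76, 7.095 and 7.00 in ILK-deficient epidermis, against 10.87, 11.53, 10.22, 13.10 and 12.38 in ILK-expressing epidermis. The genotypes were more than 2 apart on the log2 scale, and Prr9 fell by 4.34 (standard error 0.489, adjusted p = 0.00211, limma). It fell by 4.15 without ILK-expressing replicate 5. Its values were highest in ILK-expressing replicates 4 and 5, as were the hair markers, whose part in it was not tested. Smcp, a gene of the sperm mitochondrial capsule, had a log2 fold change of -0.04 (adjusted p = 0.914).

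Among the enzymes that cross-link the members, a pair passed the test. Of 4 transglutaminase genes, 3 were tested, and 1 rose and 1 fell, against 3.78% of all probe sets called in either direction. Tgm3, which acts in hair follicles and in the upper epidermis, averaged 11.12 ± 0.0805 in ILK-deficient and 12.06 ± 0.228 in ILK-expressing epidermis and fell by 0.94 (adjusted p = 0.00203, limma). Tgm5, which acts in the envelope of the upper layers, averaged 10.81 ± 0.181 in ILK-deficient and 9.87 ± 0.163 in ILK-expressing epidermis and rose by 0.94 (adjusted p = 0.00205). Both were called in each of the 22 alternatives run. Tgm1, the enzyme that anchors the envelope at the membrane, had a log2 fold change of -0.22 (adjusted p = 0.191).

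While 3.78% of all probe sets tested were called in either direction, 5 of the 22 tested among 24 other envelope precursors fell. Besides Prr9 they were Psors1c2 (fell by 2.16, adjusted p = 0.0394), a gene near corneodesmosin, Pglyrp4 (fell by 0.90, adjusted p = 0.0326), a peptidoglycan recognition protein, Csta1 (fell by 0.57, adjusted p = 0.0171), a cystatin of the envelope, and Cnfn (fell by 0.40, adjusted p = 0.0349), which encodes cornifelin, all by limma. Csta1 was called in 21 of 22 alternatives (adjusted p = 0.0516 on the letter D arrays), but Psors1c2 in 9, Pglyrp4 in 11 and Cnfn in 8. With 1 array left out, the call of Psors1c2 held only without ILK-expressing replicate 1 or 3, that of Pglyrp4 only without ILK-deficient replicate 5 or ILK-expressing replicate 2, and that of Cnfn only without ILK-deficient replicate 3, and adjusted p values over all alternatives reached 0.104, 0.103 and 0.241 for these 3 genes in that order. The main keratins of differentiating cells, Krt1 and Krt10, had log2 fold changes of -0.06 (adjusted p = 0.753) and -0.04 (adjusted p = 0.858). Of 6 tested fused S100 genes, whose proteins fill the granular cell, 2 fell, against the same 3.78%. Tchh, the trichohyalin gene of the inner root sheath, fell by 4.08 (adjusted p = 0.00117) and Crnn, the cornulin gene, fell by 3.11 (adjusted p = 0.0158), while Hrnr (-0.06, adjusted p = 0.802) and Flg2 (0.10, adjusted p = 0.924) did not pass. Tchh was called in all 22 alternatives and Crnn in 21, its call being lost under the methods' analysis of variance (adjusted p = 0.0549). Tchh is itself one of the hair markers given above. Like those markers, Crnn, Psors1c2 and Pglyrp4 were highest in ILK-expressing replicates 4 and 5, with Crnn at 12.56 and 11.49. Csta1 and Cnfn did not have this pattern. The part of hair cells in these falls was not tested. The lists were chosen with earlier results of these data known, so their counts are descriptions.

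**Figure D5:**
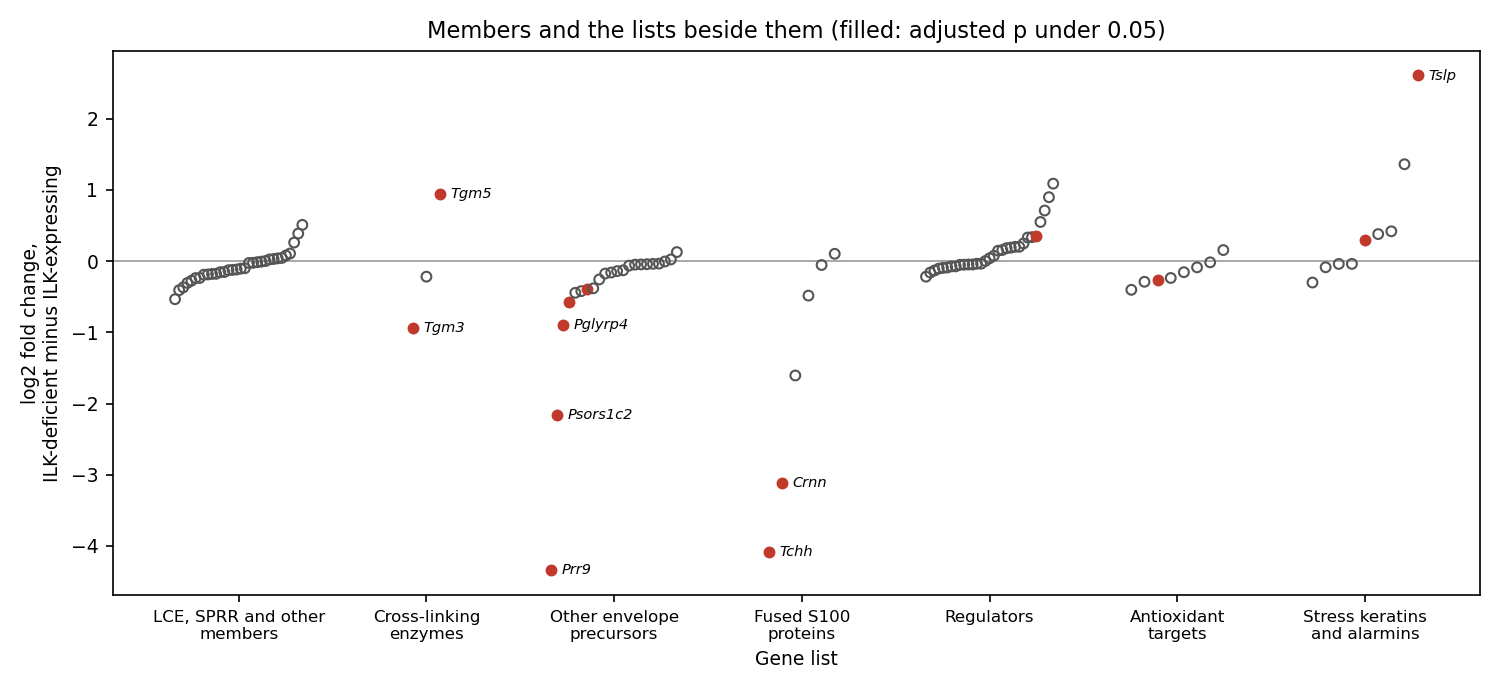
Each circle is the log2 fold change of 1 tested gene, ILK-deficient minus ILK-expressing, for the 32 members (left) and 6 lists of related genes, with filled circles at an adjusted p under 0.05. All 32 members are open and lie between -0.54 and 0.51, while Prr9, Tchh and Crnn lie below -3.

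Of 31 tested regulators of envelope genes, 1 rose and none fell, against 3.78% of all probe sets called in either direction, so that their share was near the background. The gene was Trp63 (rose by 0.35, adjusted p = 0.0204, limma), the master regulator of stratified epithelium, called in 15 of 22 alternatives. Its call was lost without ILK-deficient replicate 1, 2 or 5 or ILK-expressing replicate 4, and its adjusted p reached 0.235 over the alternatives. Zfp750 (-0.05, adjusted p = 0.876) and Tfap2a (0.20, unadjusted p = 0.0197, adjusted p = 0.188), abundant factors of keratinocytes, did not pass by limma. By unadjusted p, 11 of the 31 were under 0.05, all higher, against 15.9% of all probe sets in either direction. Among them were the AP-1 subunits Jun (0.71, adjusted p = 0.130) and Fos (0.90, adjusted p = 0.258), picked once their values were known. Of 8 antioxidant genes known to move with Sprr2 induction in stressed mouse skin, 1 fell, Gclc, the catalytic subunit of glutathione synthesis (fell by 0.27, adjusted p = 0.0326, called in 9 of 22 alternatives). With 1 array left out, its call held only without ILK-expressing replicate 1 or 2, and its adjusted p reached 0.282 over the alternatives, while Gclm (0.15, adjusted p = 0.451) and Txnrd1 (-0.29, adjusted p = 0.680) did not pass.

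Of 9 tested stress keratins and alarmins, 2 rose, against 3.78% of all probe sets called in either direction. Tslp, a cytokine released by keratinocytes when the barrier is disturbed, was at 10.17, 9.18, 7.94, 8.05 and 8.03 in ILK-deficient epidermis, against 6.21, 6.22, 6.24, 6.00 and 5.67 in ILK-expressing epidermis. The genotypes were well apart, and Tslp rose by 2.60 (standard error 0.395, adjusted p = 0.00742, limma), a call lost in 1 of 22 alternatives, the letter D arrays (adjusted p = 0.0652). Krt17, a keratin of wounds and follicles, rose by 0.30 (adjusted p = 0.0325, called in 10 of 22 alternatives). With 1 array left out, its call held only without ILK-deficient replicate 3 or ILK-expressing replicate 4, and its adjusted p reached 0.171, while Krt6b (1.36, adjusted p = 0.112) and Il1f6 (-0.04, adjusted p = 0.974) did not pass.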

How the data were processed

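Epidermal RNA of 10 mice, 5 ILK-deficient and 5 ILK-expressing, was hybridised to 1 array each. The deposited values are log2 and were summarised by the authors over the probes of a probe set. The methods name GC-RMA, RMA with background adjustment and quantile normalization, and Partek, and do not state which of these gave the table, so its background correction is not known. Array intensities have no count behind them, so the number of arrays limits the precision. No column of values was left without a sample.

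Genotypes came from the sample labels. Genotypes were compared with limma 3.58.1 in R 4.3.3 (lmFit, eBayes) over the 32046 probe sets that reached a linear 50 on 5 or more arrays, with Benjamini-Hochberg adjustment. Intervals are 95% intervals of the moderated test. The methods' comparison was an analysis of variance, which is run as an alternative. Single genes were also compared by exact permutation over 126 splits, where the smallest possible p is 0.00794. The test was checked on simulated arrays, drawn independently for each probe set and array. That check does not cover deviations that genes share on an array. The members and lists were chosen with earlier results of these data known. Every array value is given for members with an unadjusted p under 0.05 and for the 2 of each subfamily with the highest mean, Lor, Ivl, Kprp and Lelp1. From each list, genes past the test are named, at most 4, and up to 2 abundant genes that did not pass; Cnfn, Lce1i, Jun and Fos were added after their values were seen, and values of every array of Lce1l because it had the lowest fold change of its subfamily. The labels do not give the litter of a mouse, so p values measure the spread between these mice. The main test did not pair arrays by replicate number. Correlations of same-numbered arrays gave no sign of such pairing but cannot exclude it.

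Alternatives changed the filter, scaling, test, block, probe sets per gene or arrays. One more, the arrays with the letter D only, was chosen after seeing the data.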

Additional observations from a re-analysis of the deposited data

Results flagged for a closer look

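Of 64 sets of 5 arrays (32 tested members in each genotype), 3 had an array far from the other 4, where about 1 in 20 is expected by chance. Sprr2h was at 8.07 in ILK-expressing replicate 5, with the next array at 7.13 and the lowest at 7.00. Sprr2i was at 6.01 in ILK-deficient replicate 1, with the next at 5.80 and the lowest at 5.73. Sprr3 was at 8.89 in ILK-deficient replicate 4, with the next at 5.96 and the lowest at 5.89.

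Probe sets annotated with several symbols were no members, and 4 of them held a family name. Probe set 10493850, shared by Sprr2a2, Sprr2a3, Sprr2b and Sprr2a1, was at 13.63, 13.21, 13.02, 12.87 and 13.18 in ILK-deficient epidermis, against 12.37, 12.33, 12.56, 12.71 and 13.003 in ILK-expressing epidermis. This is a difference of 0.59 on the log2 scale (limma p = 0.0039, adjusted p = 0.0763; exact permutation p, two-sided, 0.0159), and 0.69 without ILK-expressing replicate 5 (adjusted p = 0.0376), which passed the threshold. Probe sets 10493856 and 10493858, shared by Sprr2a3 and Sprr2a1, held the same values on every array and count as 1 measurement. They were at 12.76, 12.24, 11.71, 11.57 and 11.82 in ILK-deficient epidermis, against 10.80, 10.85, 11.02, 11.46 and 11.84 in ILK-expressing epidermis. The difference was 0.83 on the log2 scale (limma p = 0.00902, adjusted p = 0.121; exact permutation p, two-sided, 0.0397) and 0.99 without ILK-expressing replicate 5 (adjusted p = 0.0586). Which of these genes gave the signal cannot be told from a shared probe set. The probe set shared by 6 Lce3 genes had means of 9.24 in ILK-deficient and 9.24 in ILK-expressing epidermis.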

How the results depend on the processing

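No member passed the threshold under any of the 22 alternatives run, where the lowest adjusted p was 0.0842 (Sprr2d without ILK-expressing replicate 5). The median log2 fold change of the members was -0.11. It lay between -0.18 and 0.07 with 1 array left out, above 0 only without ILK-expressing replicate 5. It was 0.09 with the letter of the description as a block and 0.12 on the arrays with the letter D. ILK-expressing replicate 5 is the only array with the letter C', so the block fits it exactly and it adds nothing to the difference. The letter D arrays also exclude it. Of 696 values of single members, 623 kept their direction, and 73, of 21 genes, changed it without passing the test in either direction. On the arrays with the letter D the sign changed for Sprr2e at 0.13, Sprr2f at 0.0438, Sprr2h at 0.0762, Sprr4 at 0.0154, Lce6a at 0.14, Lce1a1 at 0.062, Lce1b at 0.20, Lce1d at 0.22, Lce1e at 0.18, Lce1f at 0.24, Lce1g at 0.10, Lce1h at 0.20, Lce1i at 0.38, Lce1k at 0.28, Lce1l at 0.21 and Lce3c at 0.0732. With the letter as a block it changed for Sprr2e at 0.049, Sprr2h at 0.0071, Lce6a at 0.0864, Lce1a1 at 0.0616, Lce1b at 0.11, Lce1d at 0.10, Lce1e at 0.11, Lce1f at 0.11, Lce1g at 0.0171, Lce1h at 0.13, Lce1i at 0.23, Lce1k at 0.13 and Lce1l at 0.0645. With array weights it changed for Sprr2e at 0.0113, Lce1a1 at 0.0057, Lce1e at 0.0122, Lce1h at 0.0201 and Lce1i at 0.015, and with median centring for Lce1a2 at -1e-04.

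With 1 array left out in turn, log2 fold changes that crossed 0 had these ranges: Sprr2e -0.0958 to 0.0543, Sprr2f -0.057 to 0.0531, Sprr2h -0.25 to 0.0137, Sprr2i -0.0092 to 0.0969, Sprr1b -0.0608 to 0.094, Sprr3 -0.21 to 0.58, Lce6a -0.27 to 0.0661, Lce1a1 -0.0552 to 0.0493, Lce1b -0.25 to 0.0898, Lce1a2 -0.12 to 0.35, Lce1d -0.37 to 0.0853, Lce1e -0.16 to 0.0897, Lce1f -0.49 to 0.0823, Lce1h -0.18 to 0.11, Lce1i -0.42 to 0.20, Lce1j -0.0698 to 0.11, Lce1k -0.31 to 0.12 and Lce1l -0.52 to 0.0425. Leaving out ILK-expressing replicate 5 gave 12 of these changes of sign, and the cause was not tested.

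The count of called probe sets was 1211, and 686 by the methods' analysis of variance, which had 4921 at unadjusted p under 0.05, 608 with the replicate block, 294 on the letter D arrays, and between 597 and 1010 with 1 array left out. Called genes of the lists beside the members numbered 13, but 7 with the replicate block, 8 with the letter as a block, 5 on the letter D arrays and between 7 and 11 with 1 array left out. The replicate block called 0 members. Deviations of same-numbered arrays correlated between -0.296 and 0.113. No ILK-deficient array correlated best with the ILK-expressing array of its own number. This gave no sign of pairing by number, but so few arrays cannot exclude it. Sprr3, as given above, was highest in replicate 4 of both genotypes.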
